A study of Mus musculus with 6 samples.

Results

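The 37 genes described here were listed as genes of cholesterol and fatty acid synthesis and of sterol sensing and transport. They were named as genes controlled by the SREBP transcription factors, with earlier results of these data known. Shares of the members below therefore describe a list that was not drawn blind to the data. Control of each gene by SREBPs was not tested. All 37 matched 1 of the 39017 gene identifiers in the count table, and all 37 passed the filter on low counts, as did 15567 genes in total. The sterol branch has 18 members, the fatty acid branch 13, and 6 belong to sensing and transport. The measurement was RNA sequencing of adherent cells grown from crushed limb bones of wild-type BALB/c mice whose label is macrophage. Young mice (3 weeks old) gave 3 libraries, and old mice (more than 78 weeks old) gave 3. All 6 cultures were expanded in medium with 20% fetal bovine serum after the non-adherent cells had been removed, so cells of both ages met serum lipids, and 10000 cells went into each library. The labels do not tie libraries to single animals, so p-values reflect the spread among libraries, which may be technical.

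Total counts lay between 34391206 and 43367734 per library, and pairs of libraries of the same age differed by more than sampling noise. Both markers that define these cells were present in every library, Adgre1 (F4/80) at 197 to 530 CPM (counts scaled to a common library size, with TMM factors) and Siglec1 (CD169) at 37.9 to 139 CPM. Both fell with age, Adgre1 from 473 ± 77.5 to 226 ± 25.3 CPM (log2 fold change -1.06, edgeR adjusted p = 0.00499) and Siglec1 from 131 ± 6.61 to 43.3 ± 5.28 CPM (log2 fold change -1.60, adjusted p = 0.000492). The cultures also held connective tissue RNA. Col1a1 and Col1a2, which encode type I collagen, took 1.80% to 2.25% of counts in old libraries, 2.66% and 3.00% in young replicates 2 and 1, and 5.44% in young replicate 3, which stands apart from the rest. Values below therefore describe whole cultures, in which fewer cells of a type and less RNA per cell cannot be told apart.

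Cells make cholesterol from acetyl-CoA through mevalonate, isoprenoid diphosphates, squalene and lanosterol, and make fatty acids from the same precursor through malonyl-CoA, followed by elongation and desaturation. When membrane sterol is low, SCAP escorts the SREBP proteins from the endoplasmic reticulum to the Golgi, where they are cut to release a transcription factor. INSIG proteins hold the SCAP-SREBP complex back when sterol is plentiful. SREBP-2, encoded by Srebf2, acts mainly on the sterol genes and SREBP-1, encoded by Srebf1, mainly on the fatty acid genes. In macrophages the same system balances membrane lipid made within the cell against lipid taken up from serum and from engulfed cells.

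Genes of both branches were lower in old libraries, mostly by modest amounts. Of the 37 members, 11 fell (29.7%) and 0 rose at an edgeR adjusted p of 0.05, while 4.7% of all genes tested fell and 5.84% rose. The log2 fold change, old minus young, was negative for 32 of 37 members (86.5%) and for 51.5% of all genes. Its median was -0.35 over the members and -0.01 over all genes tested. For 24 members the young and old CPM ranges were separate, and of these 23 were lower in old libraries and 1, Fads3, was higher. Among all genes the shares without overlap were 14.3% lower and 15.9% higher. At an unadjusted p of 0.05, 22 members were lower, where 11.1% of all genes were, and 1 member, Insig2, was higher, where 12.7% of all genes were. DESeq2 and limma-voom also called 0 members higher. Reads of the 37 genes together made up 0.789% to 0.818% of counts in young libraries and 0.560% to 0.594% in old ones.

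**Figure D1:**
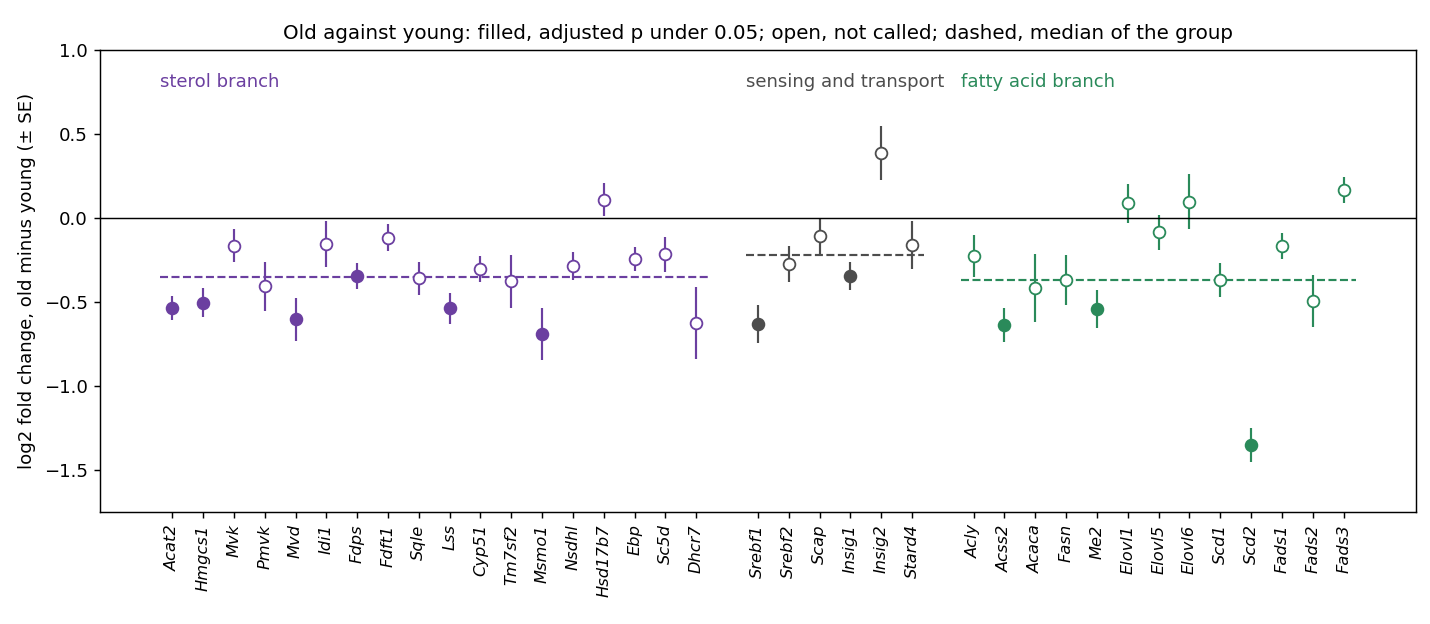
Log2 fold change (old minus young, y axis, with its SE) of each of the 37 genes, in pathway order along the x axis; filled points passed the adjusted p of 0.05, open points did not, and dashed lines are group medians. Filled points are all below 0, and Scd2 lies furthest down at -1.36.

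In the sterol branch, 6 of 18 members fell, 0 rose, and 17 of 18 had a negative log2 fold change, with a median of -0.35. The first steps make mevalonate from acetyl-CoA. Acat2, the thiolase that joins acetyl-CoA units, read 130, 144 and 132 CPM in young libraries and 92.3, 92.2 and 95.8 in old ones, here and below in the order of replicates 1 to 3. The 3 old values differed from each other by less than 4 CPM and all lay well below the young ones. The fold change was 1.45 in favour of young libraries (log2 fold change -0.54, SE 0.07, adjusted p = 0.00542). Acat2 lies on chromosome 17 at 12942890 to 12960747, minus strand. Of its read-length windows of 100 bases, 28.9% also occur in transcripts of Acat3 or Tcp1, and those genes had log2 fold changes of -0.17 and 0.08, neither called.

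Hmgcs1, which makes HMG-CoA, read 362, 360 and 337 CPM in young and 248, 229 and 269 in old libraries, again without overlap. Its log2 fold change was -0.50 (SE 0.08, adjusted p = 0.0112), and it lies on chromosome 13 at 119690379 to 119708260. An antisense gene model, Gm48342, covers 12.1% of its exon length. The pair of kinases that follow were not called. Mvk, mevalonate kinase, had a log2 fold change of -0.17 with overlapping ranges (adjusted p = 0.375). Pmvk, phosphomevalonate kinase, read 34.7, 40.7 and 50.7 CPM in young and 31.1, 30.2 and 33.7 in old libraries (log2 fold change -0.41, SE 0.15, adjusted p = 0.14). The 2 groups of Pmvk values did not overlap, but young replicate 3 was far above young replicate 1.

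Mvd, the decarboxylase that yields isopentenyl diphosphate, fell from 65.8, 68.3 and 84.5 CPM to 43.9, 46.8 and 53.1 CPM (log2 fold change -0.60, SE 0.13, adjusted p = 0.0263). Every old value lay below every young one, and replicate 3 was the highest in both ages. Idi1, the isomerase of the same intermediate, had no such separation. It read 130, 132 and 93.8 CPM in young and 111, 102 and 106 in old libraries, so young replicate 3 fell below all of the old values. Fdps, which builds farnesyl diphosphate for sterols and for protein prenylation, fell from 333, 350 and 376 CPM to 278, 269 and 286 (log2 fold change -0.35, SE 0.08, adjusted p = 0.0307). The gene model Gm43738, on the same strand, covers 26.7% of the Fdps exon length, and for Idi1, 21.9% of read-length windows also occur in other gene models.

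From squalene onward the pathway is committed to sterols. Fdft1, squalene synthase, was nearly level, at 161 ± 11.5 (SD, n = 3) in young and 148 ± 3.23 CPM in old libraries (adjusted p = 0.437). It shares 18.3% of its exon length with Ctsb on the opposite strand, an abundant protease gene at 6847 ± 1045 and 6180 ± 248 CPM, so reads of Ctsb may be counted in it. Sqle, squalene epoxidase and a control point of the pathway, read 249, 289 and 316 CPM in young and 224, 219 and 223 in old libraries. The old values were tight and below all young ones, yet the adjusted p was 0.0632 (log2 fold change -0.36, SE 0.10). Lss, which closes the ring to lanosterol, fell from 124, 145 and 150 CPM to 94.0, 97.4 and 97.1, with a log2 fold change of -0.54 (SE 0.09, adjusted p = 0.0113). It lies on chromosome 10 at 76531588 to 76557138. Cyp51, lanosterol demethylase, went from 315 ± 20.7 to 255 ± 9.92 CPM without overlap and narrowly missed the threshold (log2 fold change -0.31, adjusted p = 0.0518).

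The largest decrease of the branch was in Msmo1, the oxidase that starts removal of the sterol methyl groups. It read 323, 208 and 250 CPM in young and 155, 169 and 159 in old libraries. Young values were widely scattered while the old ones were close together, and the groups did not overlap. The log2 fold change was -0.69 (SE 0.15, adjusted p = 0.0329), and the gene lies on chromosome 8 at 64718139 to 64733792. Its partners in the same reaction series were not called. Nsdhl, the dehydrogenase, had separate ranges and a log2 fold change of -0.29 (adjusted p = 0.0812, and 0.0351 with DESeq2), and Hsd17b7, the ketoreductase, was the only sterol member with a positive value, at 0.11 (adjusted p = 0.584) and with overlapping ranges.

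Of the late enzymes none was called with edgeR, while DESeq2 called Ebp and Dhcr7 lower. The isomerase gene Ebp read 132, 128 and 124 CPM in young and 109, 104 and 112 in old libraries (log2 fold change -0.24, adjusted p = 0.0807). The reductase gene Tm7sf2 had -0.38 (adjusted p = 0.203), with 12.1% of its exon length shared with Vps51, and the desaturase gene Sc5d had -0.22 (adjusted p = 0.276). Dhcr7, the reductase that completes cholesterol, read 96.7, 90.7 and 86.6 CPM in young libraries and 39.1, 66.5 and 72.1 in old ones. All old values were below the young ones, but old replicate 1 was far below the other old libraries, and the adjusted p was 0.125 (log2 fold change -0.63, SE 0.21).

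**Figure D2:**
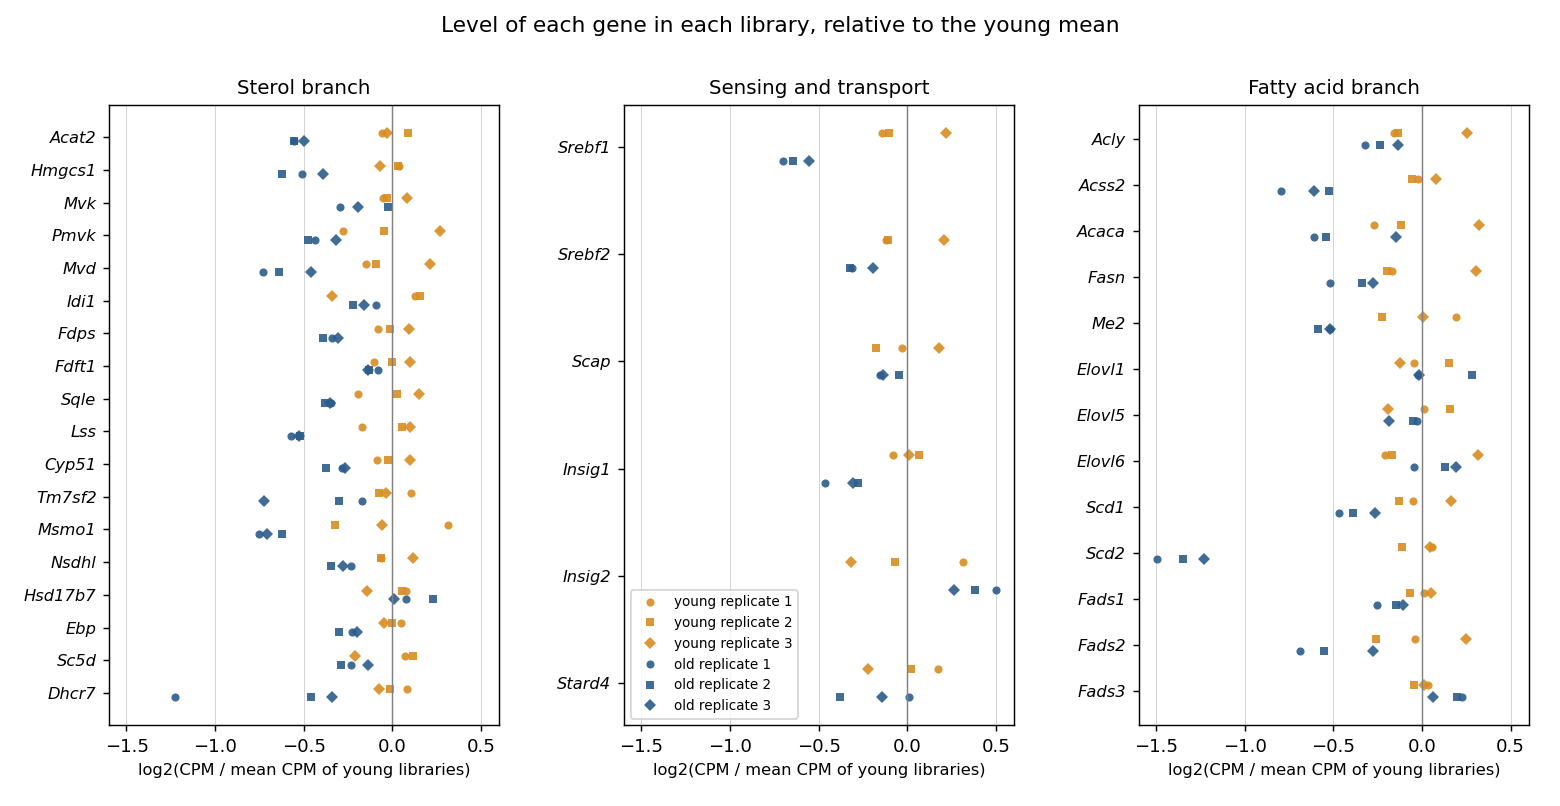
Level of each gene in each library as log2(CPM divided by the mean CPM of the young libraries), with young libraries in orange, old libraries in blue and a symbol for each replicate number. Old libraries lie to the left of 0 for most sterol genes, and Scd2 and Dhcr7 hold the lowest points.

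Among the sensing and transport genes, 2 of 6 fell and 0 rose. Srebf1, encoding SREBP-1, read 137, 141 and 176 CPM in young and 93.4, 96.9 and 103 in old libraries, with all old values below the young ones. Its log2 fold change was -0.63 (SE 0.11, adjusted p = 0.0138), and it lies on chromosome 11 at 60199089 to 60222581. Srebf2, encoding SREBP-2, read 279, 281 and 351 CPM in young and 245, 243 and 265 in old libraries. The ranges were separate, young replicate 3 was the highest library, and the gene was not called (log2 fold change -0.28, adjusted p = 0.173). Per kilobase of exon, Srebf2 was the more abundant of the pair in both ages, at 42.3 against 26.9 CPM per kilobase in young and 34.9 against 17.4 in old libraries.

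Insig1, itself an SREBP target, fell from 126, 140 and 134 CPM to 96.7, 110 and 108 (log2 fold change -0.35, SE 0.08, adjusted p = 0.0431). It lies on chromosome 5 at 28071363 to 28078662. Its paralog Insig2, which does the same task but is not induced in the same way, pointed upward, from 47.0, 36.1 and 30.4 CPM to 53.6, 49.2 and 45.5. The Insig2 ranges overlapped, since young replicate 1 exceeded old replicate 3, and the log2 fold change was 0.39 (SE 0.16, adjusted p = 0.208). Scap, the escort protein, had -0.11 (adjusted p = 0.604) and Stard4, which carries cholesterol between membranes, had -0.16 (adjusted p = 0.567), both with overlapping ranges. The antisense model 5830462I19Rik covers 13.2% of the Scap exon length.

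The fatty acid branch was led by a single gene. Of 13 members, 3 fell, 0 rose, and 10 had a negative log2 fold change, with a median of -0.37. Scd2, a stearoyl-CoA desaturase that makes monounsaturated fatty acids such as oleate, read 2106, 1875 and 2092 CPM in young libraries and 717, 794 and 863 in old ones. The highest old value was far below the lowest young one. The decrease was 2.56-fold (log2 fold change -1.36, SE 0.10, adjusted p = 0.000647), the largest of all 37 members. Scd2 lies on chromosome 19 at 44293674 to 44306864, and 0.879% of its read-length windows occur in another Scd gene. It was also the most abundant member per length in both ages, with 371 CPM per kilobase in young and 145 in old libraries. The next were Fads1 at 101 and 89.8 CPM per kilobase and Acly at 97.7 and 83.3.

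The neighbouring paralog Scd1 shared the direction at a smaller size. It read 175, 166 and 204 CPM in young and 131, 139 and 151 in old libraries, without overlap, and had a log2 fold change of -0.37 (SE 0.10, adjusted p = 0.0643). Scd3, which is not among the 37 genes, fell from 12.03 ± 1.40 to 5.22 ± 0.565 CPM (log2 fold change -1.21, adjusted p = 0.00399). Scd4 was not tested, and its 8.73 CPM in young replicate 1 stood against at most 0.251 CPM in each other library.

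The remaining members of the branch differed by less than Scd2. Acss2, which makes acetyl-CoA from acetate, fell from 50.9, 49.7 and 54.7 CPM to 29.8, 36.0 and 33.99 (log2 fold change -0.64, SE 0.10, adjusted p = 0.00935). It lies on chromosome 2 at 155517948 to 155585724, and Gss, Acss2os and Ggt7 on the opposite strand cover 9.12% of its exon length. Me2, the mitochondrial malic enzyme, fell from 140, 105 and 123 CPM to 85.7, 81.6 and 85.5 (log2 fold change -0.54, SE 0.11, adjusted p = 0.0263). The old Me2 values lay close together below a scattered young group.

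Acly, the cytosolic source of acetyl-CoA from citrate, read 463, 470 and 614 CPM in young and 412, 438 and 470 in old libraries. Its ranges overlapped and its log2 fold change was -0.23 (adjusted p = 0.337). Fasn, fatty acid synthase, read 321, 315 and 446 CPM in young and 252, 285 and 298 in old libraries, with separate ranges and a log2 fold change of -0.37 (SE 0.15, adjusted p = 0.183). Acaca, the acetyl-CoA carboxylase that makes malonyl-CoA, was low at 15.2 ± 3.39 and 11.4 ± 2.07 CPM (adjusted p = 0.271), and 23.7% of its read-length windows also occur in transcripts of other gene models. For Acly, Fasn and Acaca, young replicate 3 was the highest library.

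None of the elongases and none of the 3 Fads desaturases was called with edgeR, while DESeq2 called Fads2 lower. Among the elongases, Elovl1 and Elovl6, which extend saturated chains, had log2 fold changes of 0.09 and 0.10, and Elovl5, which extends polyunsaturated chains, had -0.09. The ranges of all 3 elongases overlapped. Fads1 and Fads2, the desaturases of polyunsaturated fatty acid synthesis, had -0.17 (adjusted p = 0.235) and -0.49 (adjusted p = 0.1), each with old values below the young ones. Fads3, from the same cluster on chromosome 19, read 266, 252 and 261 CPM in young and 304, 298 and 271 in old libraries. It was the 1 member whose old values all lay above the young ones, at a log2 fold change of 0.17 (SE 0.07, adjusted p = 0.237).

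Set side by side, the branches had similar medians but differed in how evenly their members were placed. The middle 50% of sterol members lay between -0.53 and -0.22, and that of fatty acid members between -0.49 and -0.09. The summed level of the sterol branch was 2785, 2784 and 2856 CPM in young and 2152, 2142 and 2227 in old libraries. That is 22.6% lower in old libraries, with no overlap and a spread of under 50 CPM (SD) in either age. Without its 6 called members, a split made on these same values, the branch was 16.4% lower, at 1494 ± 41.8 against 1248 ± 16.3 CPM. That remainder includes the abundant Sqle and Cyp51, whose edgeR adjusted p was 0.0632 and 0.0518. The summed fatty acid branch was 34.7% lower, at 4501 ± 305 against 2941 ± 159 CPM. Scd2 alone made up 45.0% of that sum in young and 26.9% in old libraries. Without Scd2, again a split made on these same values, the other 12 genes were 13.2% lower, at 2477 ± 210 against 2150 ± 88.8 CPM. Their median log2 fold change was -0.30. Acss2 and Me2, both called, are among these genes, so this remainder is unlike that of the sterol branch. The difference between the branches was not tested.

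**Figure D3:**
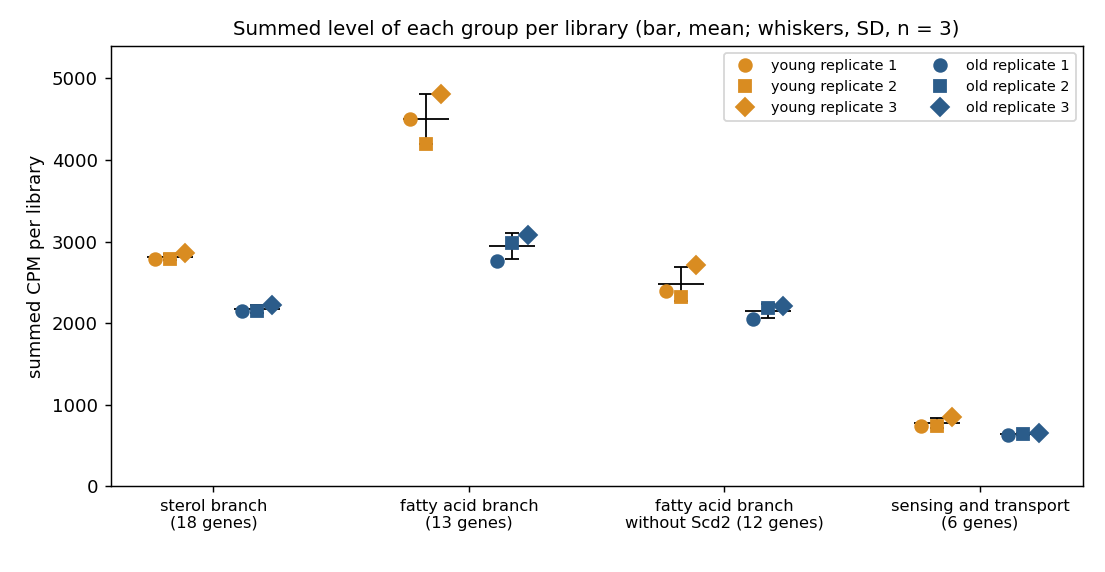
Summed CPM per library (y axis, from 0) for the sterol branch, the fatty acid branch with and without Scd2, and the sensing and transport genes, with young libraries in orange and old in blue, the mean as a bar and the SD as whiskers (n = 3). The sterol sums lie between 2784 and 2856 CPM in young and between 2142 and 2227 CPM in old libraries.

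Young replicate 3, the library with the highest collagen share, was the highest for many members. It led the young libraries for 8 of 13 fatty acid members and 9 of 18 sterol members, and for 39.9% of all genes tested. Against the mean of the other young libraries, Acaca, Elovl6, Fasn, Acly and Fads2 were higher there by 0.52, 0.51, 0.49, 0.40 and 0.40 on the log2 scale, while Idi1 and Sc5d had -0.48 and -0.31. Without that library the median log2 fold change of the fatty acid branch went from -0.37 to -0.19, and that of the sterol branch from -0.35 to -0.30. The number of sterol members that fell went from 6 to 10, with Idi1, Sqle, Cyp51, Ebp and Sc5d added and Msmo1 lost (adjusted p = 0.0502), and the number of fatty acid members that fell was 3 in both fits. The share of all genes called lower rose to 7.32% in that fit.

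**Figure D4:**
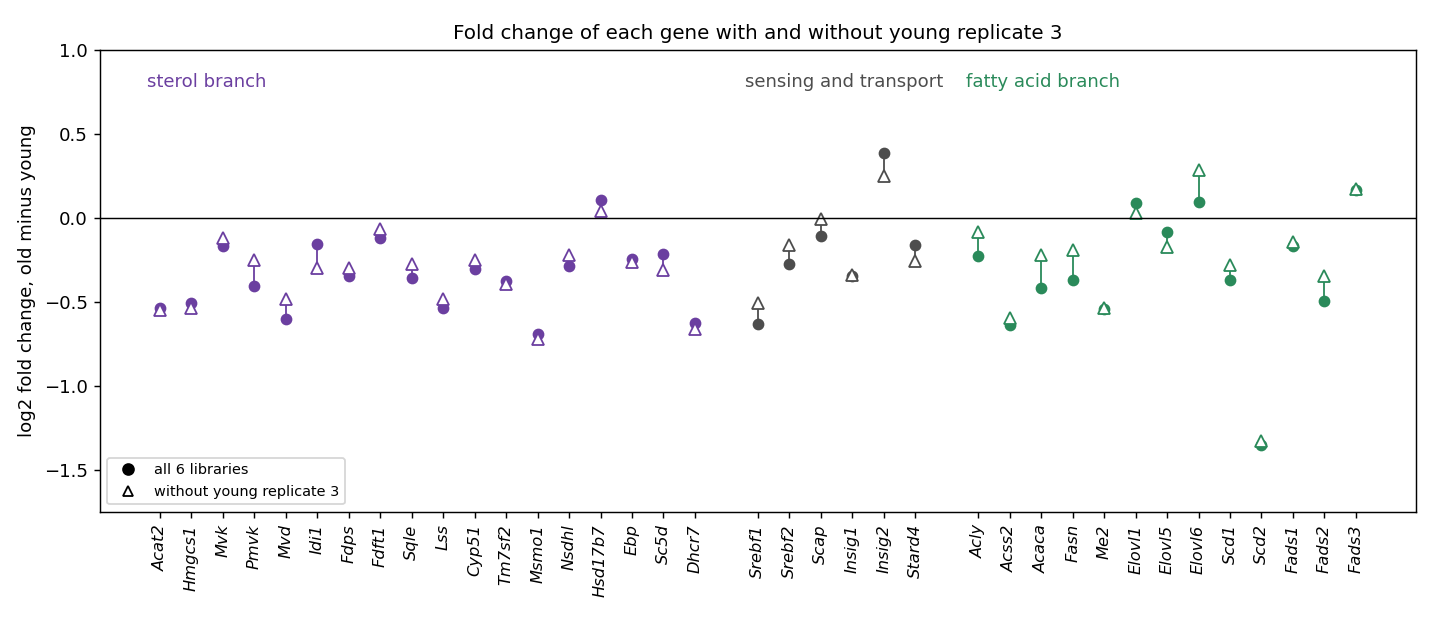
Log2 fold change (old minus young, y axis) of each gene with all 6 libraries (filled circles) and without young replicate 3 (open triangles). Acaca, Fasn and Acly move toward 0 without that library, and Scd2, Acat2 and Msmo1 stay near their places.

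Of the 11 calls, 8 were lost in at least 1 of the fits that left out a library. Acat2, Acss2 and Scd2 passed without any single library, with adjusted p up to 0.0391, 0.0438 and 0.00753. Leaving out old replicate 1 or old replicate 2 left these 3 alone among the members (8.11%, where 1.94% and 1.86% of all genes fell). Leaving out old replicate 3 left 6 (16.2%, against 2.67%). Hmgcs1 and Srebf1 lost their calls when old replicate 1 or 2 was left out (highest adjusted p 0.0619 and 0.0739). Mvd lost its call without those libraries or young replicate 2 (adjusted p up to 0.111), and Lss without any old library (adjusted p up to 0.0619). Fdps lost its call without any old library or young replicate 2 (up to 0.144), Msmo1 without any old library or young replicate 3 (up to 0.130), and Me2 without any old library or young replicate 1 (up to 0.112). Insig1 passed only when young replicate 3 was the library left out, with adjusted p up to 0.165 otherwise. The 11 genes had negative log2 fold changes in each of these fits.

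**Figure D5:**
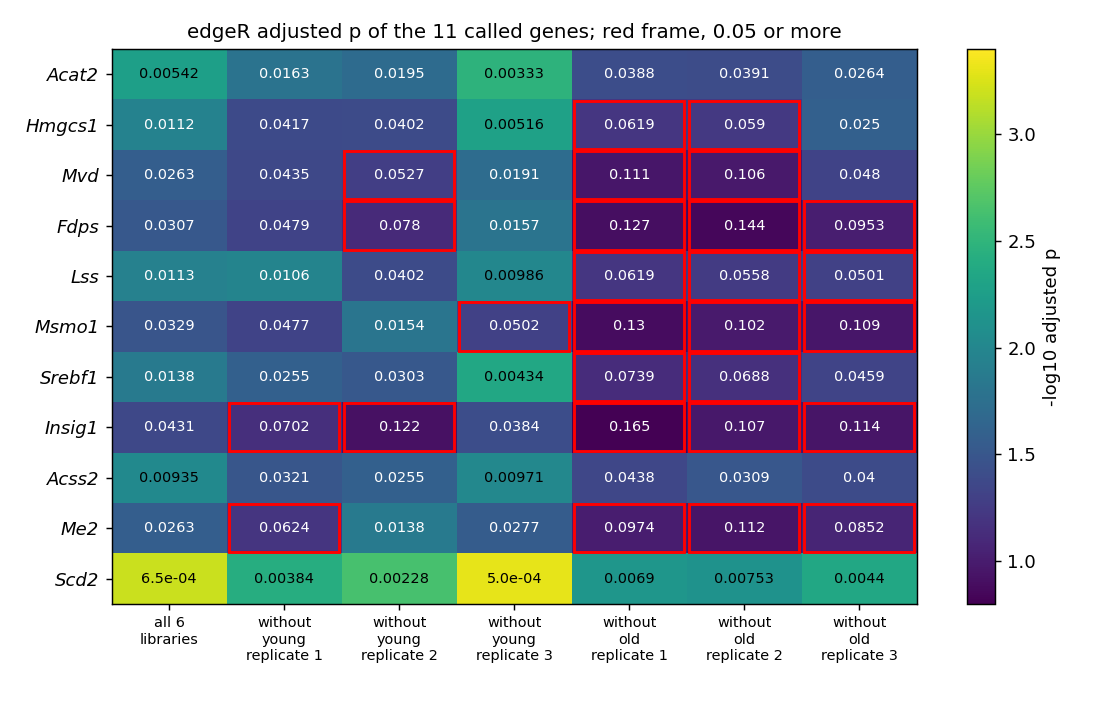
edgeR adjusted p (number and colour, as -log10) of the 11 genes that fell, with all 6 libraries and with each library left out in turn; red frames mark values of 0.05 or more. Acat2, Acss2 and Scd2 have no red frame, and most frames stand in the columns without an old library.

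Promoter sequences were examined because members of both branches moved in the same direction and SREBPs bind short sterol regulatory elements near start sites, with the factors NF-Y and SP1 often bound beside them. RefSeq windows on GRCm38.p6, from 250 bases before to 50 bases after a start, were matched for 29 of the 37 genes, 15 of them sterol and 9 fatty acid members. The set of windows used had no entry for Sqle, Fdps, Fdft1, Scd1, Scd2, Fads1, Me2 and Stard4, so these genes were not examined. A CCAAT box, the NF-Y motif (CCAAT, or ATTGG on the other strand), was found in at least 1 window of 24 of the 29 genes (82.8%), among them 14 of 15 sterol and 6 of 9 fatty acid members. It was found for 42.7% of the tested genes with a window. The GC box GGGCGG, or CCGCCC, was found in 24 of 29 (82.8%, against 67.1%) and the E-box CACGTG, which reads the same on both strands, in 6 of 29 (20.7%, against 11.6%). The sterol element core TCACNCCAC, or GTGGNGTGA, was found in 1 gene, Hmgcs1 (3.45%, against 1.41%). The shorter CACNCCAC, or GTGGNGTG, which lies within that core, was found in Acat2, Hmgcs1 and Insig1 (10.3%, against 7.51%). Of the 29 genes, 8 fell, these 3 among them. The CCAAT box was found in 7 of the 8 fallen genes and 17 of the 21 not called. For the GC box these counts were 8 and 16, and for the E-box 1 and 5. A link between the letters and the decrease was not tested. A match is only a match of letters, and genes with several start sites had more than 1 window in which to find one.

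The windows of 6 genes are shown 5′ to 3′ on the strand of the gene, in lower case, with matches to TCACNCCAC, CACNCCAC and CCAAT on either strand in capitals. Hmgcs1, Acat2 and Insig1 are shown because they hold the sterol element letters, Lss and Msmo1 as fallen genes that hold CCAAT boxes but not those letters, and Hsd17b7 as the sterol gene with a positive log2 fold change. Positions count from the start site, with bases before it negative. In Hmgcs1 the core TCACNCCAC lies at -137 to -129, with 2 CCAAT boxes before it and 2 after it. Acat2 has the letters at -181 to -174 and at -53 to -46 and no CCAAT box, and Insig1 has them at -9 to -2 and a single CCAAT box. Msmo1 and Hsd17b7 have 3 CCAAT boxes each, in the same orientation within a gene, although the former fell and the latter had a positive log2 fold change.
Hmgcs1, chr13:119690101-119690400, plus strand: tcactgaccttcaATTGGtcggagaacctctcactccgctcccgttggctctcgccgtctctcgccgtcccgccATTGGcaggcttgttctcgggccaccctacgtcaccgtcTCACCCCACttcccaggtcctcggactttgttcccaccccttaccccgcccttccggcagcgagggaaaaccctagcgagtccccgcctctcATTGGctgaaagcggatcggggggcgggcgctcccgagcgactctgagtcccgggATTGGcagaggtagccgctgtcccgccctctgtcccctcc
Acat2, chr17:12960676-12960975, minus strand: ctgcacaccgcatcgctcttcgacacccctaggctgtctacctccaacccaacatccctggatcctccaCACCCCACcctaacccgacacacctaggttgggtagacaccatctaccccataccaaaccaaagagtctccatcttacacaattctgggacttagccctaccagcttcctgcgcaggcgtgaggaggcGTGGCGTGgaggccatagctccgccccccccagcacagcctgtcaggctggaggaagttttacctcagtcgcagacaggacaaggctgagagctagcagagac
Insig1, chr5:28071162-28071461, plus strand: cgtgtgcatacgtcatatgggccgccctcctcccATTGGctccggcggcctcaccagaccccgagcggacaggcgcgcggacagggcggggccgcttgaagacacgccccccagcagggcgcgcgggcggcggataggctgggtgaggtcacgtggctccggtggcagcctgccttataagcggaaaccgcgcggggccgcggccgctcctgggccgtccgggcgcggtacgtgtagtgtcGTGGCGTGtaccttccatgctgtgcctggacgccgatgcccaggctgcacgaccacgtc
Lss, chr10:76531355-76531654, plus strand: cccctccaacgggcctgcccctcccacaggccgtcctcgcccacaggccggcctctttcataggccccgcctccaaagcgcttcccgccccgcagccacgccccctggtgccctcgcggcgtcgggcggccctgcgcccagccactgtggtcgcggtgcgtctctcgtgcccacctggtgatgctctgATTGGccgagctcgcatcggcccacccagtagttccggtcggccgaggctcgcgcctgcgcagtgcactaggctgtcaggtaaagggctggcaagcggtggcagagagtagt
Msmo1, chr8:64733529-64733828, minus strand: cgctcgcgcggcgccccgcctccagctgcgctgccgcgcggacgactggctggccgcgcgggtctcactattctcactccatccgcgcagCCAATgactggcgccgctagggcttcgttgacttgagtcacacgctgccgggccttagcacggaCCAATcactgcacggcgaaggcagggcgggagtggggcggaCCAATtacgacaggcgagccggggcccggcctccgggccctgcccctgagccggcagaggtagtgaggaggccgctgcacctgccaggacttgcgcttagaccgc
Hsd17b7, chr1:169969156-169969455, minus strand: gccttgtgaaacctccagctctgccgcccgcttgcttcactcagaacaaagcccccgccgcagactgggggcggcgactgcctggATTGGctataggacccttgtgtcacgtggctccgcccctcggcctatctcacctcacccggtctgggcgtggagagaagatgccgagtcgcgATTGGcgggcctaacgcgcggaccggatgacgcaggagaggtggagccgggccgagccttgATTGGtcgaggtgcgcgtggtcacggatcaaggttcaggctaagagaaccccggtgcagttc

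Lists of neighbouring lipid genes gave a mixed picture beside the 37 members. For comparison with each list, 4.7% of all genes tested fell and 5.84% rose with edgeR. At an unadjusted p of 0.05 these shares were 11.1% and 12.7%. Of 13 tested genes for fatty acid supply and further enzymes, 3 fell and 0 rose with edgeR, as with DESeq2 and limma-voom, and 0 were higher at an unadjusted p of 0.05. Besides Scd3, these were Acsl3, which activates long-chain fatty acids (96.7 ± 8.41 to 47.9 ± 1.89 CPM, log2 fold change -1.01, adjusted p = 0.00124), and Slc25a1, the mitochondrial citrate carrier that feeds Acly (166 ± 12.2 to 124 ± 5.005 CPM, log2 fold change -0.42, adjusted p = 0.0208). The Slc25a1 call was lost without young replicate 1 or any old library (adjusted p up to 0.104). Me1, the cytosolic malic enzyme, had -0.22 (adjusted p = 0.234).

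The next list held genes that activate or degrade SREBPs and the DNA-binding partners NF-Y (Nfya, Nfyb, Nfyc) and Sp1. Of its 11 genes, 0 were called in either direction with edgeR or limma-voom, DESeq2 called 1 higher, and 3 were higher and 0 lower at an unadjusted p of 0.05. Sp1 read 1.48, 1.75 and 1.93 CPM in young and 19.9, 1.92 and 17.3 in old libraries, so that old replicate 2 lay within the young range (log2 fold change 2.92, adjusted p = 0.0545), and it was called higher without old replicate 2. Mbtps1, the protease that first cuts SREBPs, had a log2 fold change of 0.12 (adjusted p = 0.549), and was called higher without young replicate 3. Of 11 genes that use isoprenoids downstream of Fdps, edgeR, DESeq2 and limma-voom each called 0, and at an unadjusted p of 0.05 there were 0 as well. The most abundant, Fnta of the prenyltransferases and Nus1 of dolichol synthesis, had log2 fold changes of 0.15 and 0.05. Another, Pdss1, was called lower when young replicate 3 was left out.

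Log2 fold changes of fatty acid oxidation genes were positive for 12 of 14 and negative for 2, while 51.5% of all genes tested had negative ones. Of the 14 tested, 2 rose and 0 fell with edgeR, DESeq2 or limma-voom, 0 were lower at an unadjusted p of 0.05, and the median log2 fold change was 0.13. Acadm, a mitochondrial acyl-CoA dehydrogenase, rose from 95.3 ± 6.81 to 124 ± 5.68 CPM (log2 fold change 0.38, adjusted p = 0.0313). With 1 library left out, the Acadm call held only when that library was young replicate 3 (adjusted p up to 0.131 otherwise). In each of those other fits, 0 of the 14 genes were called in either direction.

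In the list of cholesterol ester, oxysterol and LXR genes, 2 of 13 rose and 2 fell (3 and 4 with DESeq2, 3 and 2 with limma-voom). Abca1, which exports cholesterol and is induced when sterol is plentiful, fell from 99.5 ± 11.3 to 39.3 ± 0.704 CPM (log2 fold change -1.34, adjusted p = 0.00071). Nr1h3, encoding the oxysterol receptor LXR-alpha, rose from 16.5 ± 1.604 to 28.1 ± 2.85 CPM (log2 fold change 0.76, adjusted p = 0.0108), and was not called when old replicate 1 or 2 was left out (highest adjusted p 0.0541). Lipa, the lysosomal lipase that frees cholesterol from esters, rose from 554 ± 59.7 to 831 ± 62.6 CPM (log2 fold change 0.59, adjusted p = 0.0144), and was not called when young replicate 1, old replicate 1 or old replicate 2 was left out (highest adjusted p 0.0706). Of 15 glycerolipid synthesis genes, 1 rose and 0 fell with edgeR, DESeq2 or limma-voom, and 1 was lower at an unadjusted p of 0.05. The 1 that rose was Agpat3, an acyltransferase of phospholipid synthesis (90.4 ± 6.79 to 132 ± 9.43 CPM, adjusted p = 0.0116, and 0.0563 without old replicate 2).

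Markers of cell types moved in the same libraries. Of 8 macrophage markers, 7 fell and 0 rose, their median log2 fold change was -1.004, and their summed level was 7730 to 9629 CPM in young and 4350 to 4721 CPM in old libraries. Of 10 stromal and osteoblast markers, 3 fell and 1 rose, and their sum was 28092 to 61843 CPM in young and 19203 to 24325 in old libraries. Most of that sum was Col1a1 and Col1a2, neither of them called (adjusted p = 0.0783 and 0.158). Ibsp, Sp7 and Lum fell (log2 fold changes -4.46, -1.03 and -3.14). Pdgfra rose from 61.8 ± 5.53 to 145 ± 18.2 CPM (1.23, adjusted p = 0.00137), and Pdgfrb had 0.54 with separate ranges (adjusted p = 0.0651). The other 8 of the 10 had negative values. Of 4 tested adipocyte markers, cells that express the fatty acid branch strongly, 1 rose, Fabp4, which macrophages express too, from 25.2 ± 1.79 to 63.3 ± 1.14 CPM. Plin4 read 0.764 to 3.42 CPM in young and 4.34 to 4.77 in old libraries, without overlap (log2 fold change 1.15, adjusted p = 0.186), and was called higher when young replicate 3 was left out. The adipocyte hormone gene Adipoq was low but present at 1.88 to 3.22 CPM (66 to 141 counts) with a log2 fold change of 0.10, Plin1 reached at most 0.987 CPM, and Lep and Adig had 0 counts in all libraries. B cell and megakaryocyte markers, with 3 of 4 and 4 of 5 higher, reached sums of 15.6 to 27.6 and 227 to 306 CPM in old libraries, from 3.09 to 4.77 and 47.0 to 80.1 in young ones. Of 8 cell cycle genes, 0 were called with edgeR or limma-voom, DESeq2 called 1 higher, 2 were higher and 0 lower at an unadjusted p of 0.05, and the sum was 768 to 834 CPM in young and 796 to 882 in old libraries. The part of these shifts in the values of the synthesis genes was not tested.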

How the data were processed

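RNA sequencing of 6 libraries, 3 young and 3 old, was analysed from the deposited counts, which are whole-number counts of read pairs or reads per Ensembl gene with 1 column per library. Per the labels' protocols, RNA of 10000 cells was amplified with a low-input kit and sequenced as pairs of 100 bases. The submitters' processing notes name the mm10 build and, without roles, StringTie 1.3.4d, SAMtools 1.9, Picard 2.18.15, HISAT2 2.1.0, STAR 2.6.1a, Trim Galore 0.50 and cutadapt 1.18. For the counting tool, annotation release, strand setting and treatment of reads with several matches, no entry is given in the sources used here. Overlapping genes, and genes that resemble another, may therefore share reads, and amplified reads are not independent molecules.

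Libraries were grouped by age from the labels. Symbols matched 37607 of 39017 identifiers, and identifiers with no symbol took 0.339% to 0.398% of the counts. Counts were tested in R 4.3.3 with edgeR 4.0.16: filterByExpr (minimum count 10), TMM scaling, the robust quasi-likelihood test, and Benjamini-Hochberg adjustment over the 15567 genes tested, with a threshold of 0.05. Each SE was obtained from the log2 fold change (its size over the root of the F statistic). CPM uses TMM-scaled library sizes. Gene positions, exon length (union of exons), exon overlap and shared windows of 100 bases on either strand came from GENCODE M21 on GRCm38, and promoter windows from RefSeq on GRCm38.p6. The procedure was tested on simulated data.

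The members and all lists were chosen with earlier results of these data known. Named genes were all 37 members and, from each neighbouring pathway list, up to 3 genes past the threshold, by smallest p, and failing any the 2 of highest abundance. Some genes that this rule picks are not reported here. Lists were described by counts and medians with no set test, and a sum of CPM over a group is not a count of molecules. Scd4, Sp1, Me1 and single cell type markers were named with their values known. The alternatives comprised DESeq2 1.42.0 size factors and test, upper-quartile factors, limma-voom (limma 3.58.1), no filter beyond 1 count, at least 50 counts in 3 libraries, a non-robust dispersion, a replicate block and leaving out each library. No column was left unused, and the replicate numbers paired libraries only in the block alternative.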

Additional observations from a re-analysis of the deposited data

How the results depend on the processing

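The direction of all 11 called members was the same under the 14 alternatives, and in 0 of them was a member called higher. Of 518 values of single members under alternatives, 472 kept their side of the threshold or were never past it, 30 lost a call, 16 gained one and 0 reversed a called direction. With the DESeq2 test, 1137 genes were lower (731 with edgeR), and 18 members, 11 of them in the sterol and 5 in the fatty acid branch. The members it added were Sqle, Cyp51, Nsdhl, Ebp, Dhcr7, Scd1 and Fads2. Without a low-count filter, 1 sensing and transport gene was lower. Over the fits without 1 library, 418 to 1459 genes were higher and 294 to 1168 lower. In the same fits 3 to 15 members were lower, 1 to 10 in the sterol branch and 0 to 2 in sensing and transport. The old to young ratio of the summed sterol level was 0.774 and stayed between 0.764 and 0.781, and that of the fatty acid level was 0.653 and stayed between 0.632 and 0.676.

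With the replicate number as a block, 711 genes were higher and 575 lower, and 10 members were lower, 4 of them sterol and 4 fatty acid members. Fdps (adjusted p = 0.0540) and Msmo1 (adjusted p = 0.0608) were not called and Fads2 was (adjusted p = 0.0396). Deviations from the age means correlated at 0.09, 0.04 and 0.08 between libraries of the same number, and each library correlated best with its own number among those of the other age. These correlations are small and were not set against a chance level, and the labels give the numbers no meaning. Whether the numbers mark pairs was not tested.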
